A study of Mus musculus with 6 samples.

Results

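Kupffer cells are the macrophages that live in the sinusoids of the liver, where they take up particles, dying cells and aged red cells from the blood. They depend on signals through the CSF1 receptor, and in mice they are recognised by a small set of surface lectins, scavenger receptors and complement receptors. The genes described here are 8 such markers, chosen by symbol: Clec4f, Vsig4, Cd5l, Marco, Timd4, Csf1r, Tyrobp and Cd68. Each of the 8 had 1 probe set annotated with its symbol alone, so all 8 were measured, out of 19938 named genes on the array. The values compared are GFP-positive cells, which the labels call replicating, against GFP-negative cells, called quiescent, sorted by fluorescence from the perfused livers of transgenic CyclinB1-GFP mice that were 3.5 weeks old. Both fractions carry the transgene, and the labels give no strain background, no promoter for the reporter and no marker used to gate a cell type. There were 3 arrays per group, from 3 mice, labelled as biological replicates.

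All values are log2 of the deposited intensity. The median over all probe sets lay between 4.60 and 4.74 on the 6 arrays, and a marker below its array's median is described as near background. No detection calls were used. With 3 arrays per group, precision is limited by their number. The livers' main cell type was plain on every array: all 16 hepatocyte markers lay above the array medians in both groups, with group means between 8.42 and 13.31. All 12 cell division genes listed as a check of the sort rose in GFP-positive cells, by 2.49 to 4.71. Both lists were chosen with earlier results of these data known. Replicate number 2 stood apart in both groups by its sex-linked genes. Xist was 9.80 on GFP-positive 2 and 9.03 on GFP-negative 2, and between 3.73 and 4.04 on the other 4 arrays.

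The Kupffer cell markers were faint in both fractions. Group means ran from 3.87 to 4.91 in GFP-positive cells and from 4.14 to 5.59 in GFP-negative cells. Clec4f and Tyrobp had means above the array medians in both groups, Cd68 in GFP-negative cells alone, and the other 5 in neither group. Among all genes, 54.4% had means above the array medians in both groups. Cd5l, Timd4 and Csf1r lay below the array median on all 6 arrays. The name of the set therefore describes what these genes are known for, and most of them did not show a clear Kupffer cell signal in either sorted fraction.

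**Figure D1:**
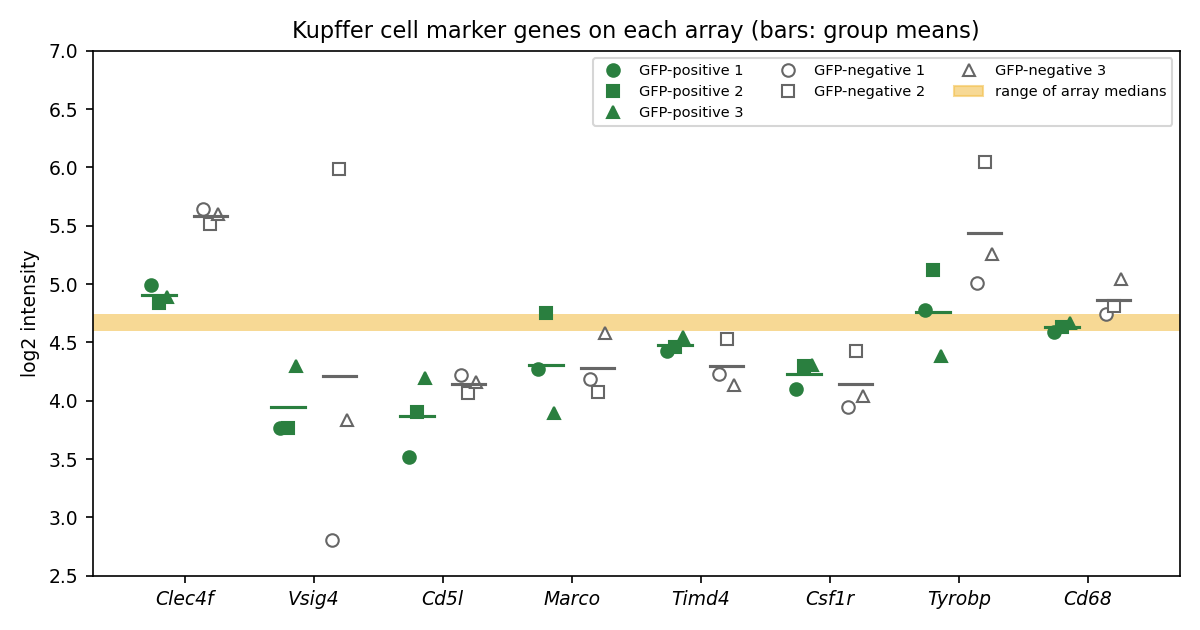
Log2 intensity of the 8 Kupffer cell markers on each array, GFP-positive (filled) left of GFP-negative (open), with marker shape for the replicate number, bars for group means (n = 3) and a band for the range of array medians, 4.60 to 4.74. Clec4f is the marker whose 6 values all lie above the band with the groups apart, and Vsig4 and Tyrobp are highest on GFP-negative 2.

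A single difference passed the test across all genes, that of Clec4f, which was lower in GFP-positive cells. This call was lost in 8 of 16 alternative fits, among them the one with the replicate block (adjusted p = 0.0773). With limma and Benjamini-Hochberg adjustment over 19938 genes at 0.05, 1 of the 8 markers was lower and 0 were higher, where 0.115% of all genes were lower and 1.55% higher. The median difference of the 8, GFP-positive minus GFP-negative, was -0.25, against -0.03 over all genes, and 5 of the 8 lay below 0, against 55.7% of all genes. At an unadjusted p below 0.05 there were 2 of 8 (Clec4f and Tyrobp), where 8.8% of all genes had such a p. In bulk arrays, fewer cells of a type and less RNA of a gene per cell cannot be told apart.

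Clec4f encodes a C-type lectin that binds galactose-type sugars and, in mouse liver, is a defining surface protein of Kupffer cells. It stood at 4.99, 4.83 and 4.89 on the GFP-positive arrays 1, 2 and 3, against 5.65, 5.52 and 5.60 on the GFP-negative arrays. All 3 GFP-positive values lay below all 3 GFP-negative ones, and all 6 lay above their array's median, by 0.12 to 0.33 on GFP-positive and by 0.86 to 1.01 on GFP-negative arrays. The means were 4.91 ± 0.08 for GFP-positive and 5.59 ± 0.07 for GFP-negative cells (SD, n = 3 each), a difference of -0.68 ± 0.13 (SE, limma adjusted p = 0.0325), or 1.60-fold lower in GFP-positive cells. Within replicate numbers 1, 2 and 3 the difference was -0.66, -0.68 and -0.70. Its spread was narrow: 84.8% of genes had a larger SD in GFP-positive and 91.1% a larger SD in GFP-negative cells. Of the 23 genes called lower in GFP-positive cells, Clec4f had the smallest fall, and the falls ran to -2.24. Among 4391 genes whose mean level lay within 0.5 of that of Clec4f, a range set after the values were seen, 6 were called lower, or 0.137%. With any 1 array left out the adjusted p lay between 0.0699 and 0.152.

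**Figure D2:**
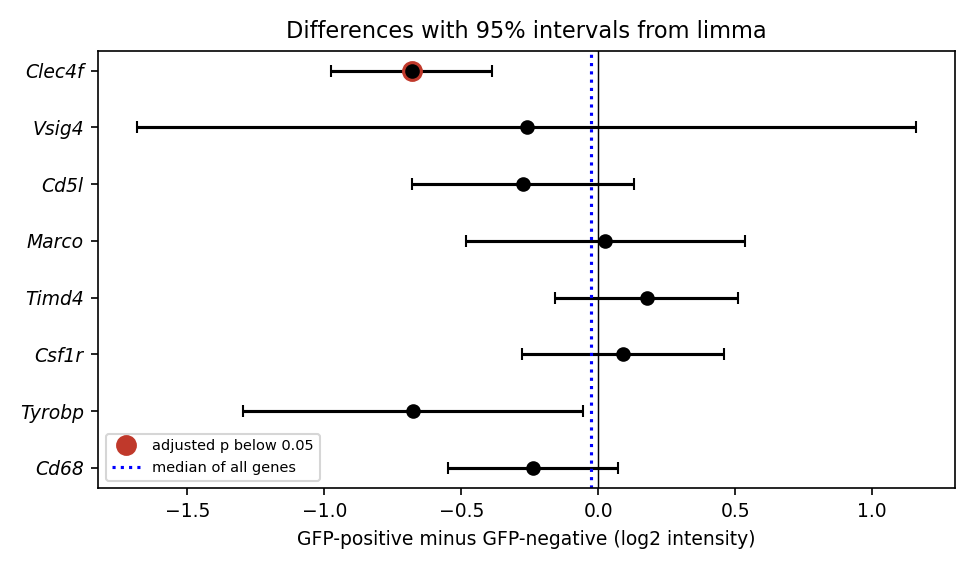
GFP-positive minus GFP-negative difference of each Kupffer cell marker in log2 intensity (points) with 95% intervals from limma (bars, 3 arrays per group), and the median of all genes at -0.03 as a dotted line. The point for Clec4f, at -0.68, is the one with an adjusted p below 0.05, and the interval of Vsig4 is the widest, from -1.68 to 1.16.

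Tyrobp encodes DAP12, a small adaptor with an activation motif through which many myeloid and natural killer cell receptors signal. It measured 4.78, 5.12 and 4.39 on the GFP-positive arrays, against 5.01, 6.05 and 5.26 on the GFP-negative arrays. GFP-positive 2 lay above GFP-negative 1, so the groups overlapped, although the value was lower in GFP-positive cells within each of the 3 replicate numbers. The difference was -0.67 ± 0.28, as large as that of Clec4f, with an SD of 0.37 over GFP-positive and 0.54 over GFP-negative arrays (limma adjusted p = 0.4998, 95% interval -1.29 to -0.05). Within numbers 1, 2 and 3 the difference was -0.23, -0.92 and -0.87. With 1 array left out it ran from -0.89 (without GFP-negative 1) to -0.37 (without GFP-negative 2), and it was -0.49 without GFP-positive 3. With both arrays of number 2 left out it was -0.55. The limma fit with the replicate block gave an adjusted p of 0.175.

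Cd68 encodes a heavily glycosylated protein of late endosomes and lysosomes in macrophages. Its values were 4.59, 4.63 and 4.66 in GFP-positive cells, against 4.74, 4.81 and 5.04 in GFP-negative cells. The groups did not overlap, but every GFP-positive value lay just under its array's median and every GFP-negative value just over it, by 0.10 to 0.30. The difference of -0.24 ± 0.14 did not pass (limma adjusted p = 0.721, 95% interval -0.55 to 0.07). Non-overlap downward, seen for Clec4f and Cd68 among the 8 markers, occurred in 6.98% of all genes. Non-overlap upward occurred in 0 of the 8 markers and 6.82% of all genes.

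Csf1r encodes the receptor tyrosine kinase for CSF1 and IL34, on which Kupffer cells depend for survival. It measured 4.10, 4.29 and 4.30 in GFP-positive cells, against 3.95, 4.43 and 4.04 in GFP-negative cells. All 6 values were near background and the groups overlapped. The difference was 0.09 ± 0.16, with a 95% interval from -0.28 to 0.46 (limma adjusted p = 0.946).

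Vsig4 encodes CRIg, a complement receptor that catches particles coated with C3 fragments. It measured 3.77, 3.77 and 4.30 on the GFP-positive arrays, against 2.81, 5.98 and 3.83 on the GFP-negative arrays. GFP-negative 2 was the single array on which Vsig4 exceeded the array median, by 1.38, and GFP-negative 1 held the lowest value of any marker on any array. The SD over GFP-negative arrays was 1.62, and 0.0752% of genes had a larger one. The difference of -0.26 ± 0.63 did not pass (limma adjusted p = 0.963), and it was 0.63 without GFP-negative 2, which turns its direction. Vsig4 lies on chromosome X. Of the 2 arrays with high Xist, Vsig4 was 5.98 on GFP-negative 2 and 3.77, near background, on GFP-positive 2. A link between Vsig4 and sex was not tested.

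Lists of genes of non-parenchymal cells, the liver cells other than hepatocytes, differed in whether GFP-negative 2 was their highest array. The summed intensity of the 8 markers was 166, 185 and 172 on GFP-positive 1, 2 and 3, against 187, 281 and 210 on GFP-negative 1, 2 and 3. GFP-negative 2 was thus the highest of the 6 arrays, and 4 of the 8 markers had their GFP-negative maximum there (Vsig4, Timd4, Csf1r and Tyrobp). The 15 sinusoidal endothelial markers summed to 488, 531 and 547 on the GFP-positive arrays, against 595, 749 and 578 on the GFP-negative arrays, with number 2 again the highest. The 13 stellate cell markers summed to 495, 488 and 449 on the GFP-positive arrays, against 565, 624 and 608 on the GFP-negative arrays. Their sum was thus also highest on GFP-negative 2, but their mean log2 was highest on GFP-negative 3 (5.34, against 5.29 on GFP-negative 2). The C1q and phagocyte effector genes summed to 983, 1069 and 945 on the GFP-positive arrays, against 1040, 1521 and 871 on the GFP-negative arrays, likewise highest on number 2. Ctsb (9.81 on GFP-negative 2) and Ctsc (8.15) made up much of that sum, and neither is particular to non-parenchymal cells. Ctsc was higher still on GFP-positive 2 (8.26). Within each group, 9 of the 13 genes were highest on number 2. The list's mean log2 was also highest on GFP-negative 2 (5.53), against 5.07 and 5.08 on GFP-negative 1 and 3 and 4.95 to 5.21 on GFP-positive arrays. The sums of the other Kupffer cell surface and iron handling genes did not peak on GFP-negative 2. They were 1357, 997 and 1225 on the GFP-positive arrays, against 1522, 1477 and 1194 on the GFP-negative arrays. A sum is led by the brightest genes, and in mean log2 this list did peak on GFP-negative 2. Its mean log2 was 5.19 there, against 5.09 and 5.06 on GFP-negative 1 and 3 and 4.82 to 4.95 on GFP-positive arrays. Among the GFP-negative arrays, number 2 had the lowest sum of the 12 myeloid signalling genes around CSF1 and TYROBP (257, against 267 and 293 on numbers 1 and 3) and of lymphoid markers (172, against 194 and 238), while monocyte markers were level on numbers 2 and 3 (169 each) and neutrophil markers were highest on number 1 (245). The 16 hepatocyte markers summed to 82445 on GFP-negative 2, between 83676 on number 1 and 79939 on number 3. The part of these other cell types in the values of Vsig4 and Tyrobp was not tested.

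**Figure D3:**
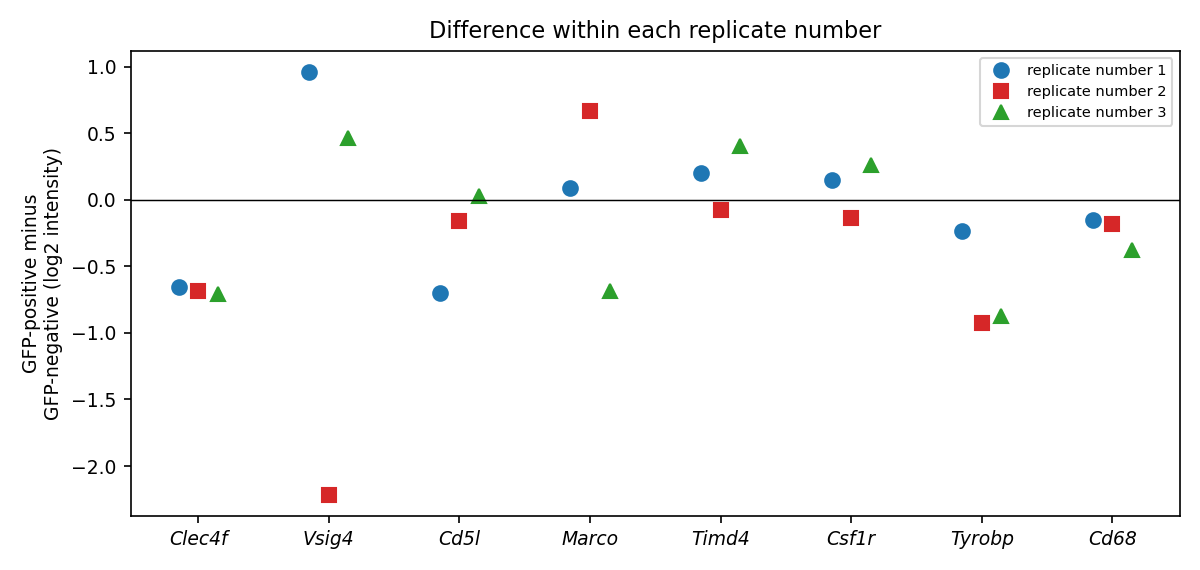
Difference between the GFP-positive and the GFP-negative array of the same replicate number, in log2 intensity, for each Kupffer cell marker. Clec4f differs by -0.66 to -0.70 in all 3 numbers, while Vsig4 differs by -2.21 in number 2 and by 0.96 and 0.47 in numbers 1 and 3.

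Cd5l, Marco and Timd4 are receptors or secreted proteins for debris and microbes, and none of them passed. Cd5l encodes a secreted scavenger protein also called AIM. It measured 3.52, 3.90 and 4.19 in GFP-positive cells, against 4.22, 4.06 and 4.16 in GFP-negative cells, a difference of -0.28 ± 0.18 (limma adjusted p = 0.778). GFP-positive 1 was its lowest array, and GFP-positive 3 lay within the GFP-negative range. Marco encodes a collagen-like scavenger receptor for bacteria and particles, and it measured 4.27, 4.75 and 3.90 in GFP-positive cells, against 4.18, 4.08 and 4.58 in GFP-negative cells. Its groups overlapped throughout and the difference was 0.03 ± 0.23 (limma adjusted p = 0.991, 95% interval -0.48 to 0.53). Timd4 encodes a receptor for phosphatidylserine on dying cells that marks long-resident Kupffer cells. It measured 4.43, 4.46 and 4.54 in GFP-positive cells, against 4.23, 4.53 and 4.14 in GFP-negative cells. Here 2 GFP-negative arrays lay below all GFP-positive ones and the other lay among them, and the difference was 0.18 ± 0.15 (limma adjusted p = 0.854, 95% interval -0.16 to 0.51).

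Promoters of the called marker and of the marker with the widest spread are shown, because PU.1, the product of Spi1 and a leading transcription factor of macrophages, binds sites built on the letters GAGGAA. RefSeq windows of 300 bases around the start of the gene (GRCm38.p6) were at hand for 6 of the 8 markers. In the sequences below, both read 5′ to 3′ on the minus strand, capitals mark GAGGAA or TTCCTC, its form on the other strand.
Clec4f, chr6:83656067-83656366: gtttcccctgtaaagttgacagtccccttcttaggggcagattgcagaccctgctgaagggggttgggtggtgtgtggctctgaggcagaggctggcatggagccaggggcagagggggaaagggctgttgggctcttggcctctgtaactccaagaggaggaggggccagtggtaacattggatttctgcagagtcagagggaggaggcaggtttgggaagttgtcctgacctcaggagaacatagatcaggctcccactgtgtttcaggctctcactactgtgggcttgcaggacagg
Vsig4, chrX:96293389-96293688: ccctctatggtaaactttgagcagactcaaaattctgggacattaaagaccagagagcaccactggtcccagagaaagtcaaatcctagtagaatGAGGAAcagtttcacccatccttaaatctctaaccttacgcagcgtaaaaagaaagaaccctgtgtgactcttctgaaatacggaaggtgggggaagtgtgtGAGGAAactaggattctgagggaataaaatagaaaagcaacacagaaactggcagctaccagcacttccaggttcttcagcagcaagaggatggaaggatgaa
The Clec4f window held no match and the Vsig4 window held 2. Over the 6 markers, 4 windows held at least 1 match (Vsig4, Cd68, Cd5l and Marco), while Clec4f and Timd4 held none, and 28.3% of 32851 such windows over the mouse genome held at least 1. A match is a run of letters and was not tested for binding. Spi1 itself was near background in both groups.

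Further macrophage genes were set beside the markers in 5 lists of 57 measured genes, and none was called in either direction by limma. An unadjusted p below 0.05 was seen for 4 of the 57, where 8.8% of all genes had one. The median difference of the 57 was -0.05, and 36 of them lay below 0, against 55.7% of all genes. Means below the array medians in both groups were seen for 32. Among 12 genes of the Kupffer cell surface and of iron handling, the median was -0.18. The largest differences were those of the terminal complement gene C6 (4.25 ± 0.42 for GFP-positive cells and 5.15 ± 0.74 for GFP-negative cells, limma adjusted p = 0.439) and the fatty acid and scavenger receptor gene Cd36 (4.62 ± 0.41 for GFP-positive cells and 5.30 ± 0.54 for GFP-negative cells, adjusted p = 0.514). With the replicate block, C6 had an adjusted p of 0.0485. Of 9 macrophage transcription factor genes, Nr1h3, which encodes the oxysterol receptor LXR-alpha and is also expressed by hepatocytes, differed by 0.36 ± 0.16 (adjusted p = 0.581), and Maf by -0.19 ± 0.15 (adjusted p = 0.842).

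Complement C1q and phagocyte effector genes, 13 in number, had a median difference of -0.20, close to that of the markers. Of the 13, 11 lay below 0, against 55.7% of all genes. The cathepsin genes Ctsc and Ctsb, whose proteases work in lysosomes of many cell types, had the largest differences among those above background. Ctsc averaged 7.60 ± 0.59 over GFP-positive and 6.90 ± 1.11 over GFP-negative arrays (limma adjusted p = 0.805), and Ctsb averaged 9.07 ± 0.16 over GFP-positive and 9.40 ± 0.44 over GFP-negative arrays (adjusted p = 0.778). Lyz2, a lysozyme gene of macrophages and neutrophils with means near background in both groups, differed by -0.58 with all arrays (limma adjusted p = 0.627) and by -0.97 when GFP-negative 3 was left out (adjusted p = 0.0253). A list of 12 genes of myeloid signalling, which holds ligands of the CSF1 receptor, TYROBP partners, other activating receptors and their kinase, and the GM-CSF receptor subunit genes Csf2ra and Csf2rb, had a median of 0.01, with the largest differences above background in the receptor ligand gene Il34 (-0.15 ± 0.20, adjusted p = 0.914) and in Csf2ra (0.10 ± 0.17, adjusted p = 0.942). The 11 markers of monocytes and recruited macrophages had a median of 0.04, and 10 of them were near background in both groups. Cx3cr1, the fractalkine receptor gene, was the one above it (0.23 ± 0.15, adjusted p = 0.772).

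Markers of other liver cells gave 0 calls in 7 lists by limma, and their values stand here beside those of Clec4f and Tyrobp. Differences of like size, without a call, were found for the endothelial genes Cdh5 (-0.71 ± 0.27, adjusted p = 0.440) and Kdr (-0.68 ± 0.19, adjusted p = 0.191) and for the stellate cell genes Dcn (-0.86 ± 0.26, adjusted p = 0.240) and Rgs5 (-0.59 ± 0.19, adjusted p = 0.295). The list medians were -0.19 for 15 endothelial and -0.20 for 13 stellate cell markers. Of these, 3 and 4 had an unadjusted p below 0.05, against 8.8% of all genes. The stellate cell markers summed to 449 to 495 on GFP-positive arrays and 565 to 624 on GFP-negative arrays, and the endothelial markers to 488 to 547 on GFP-positive and 578 to 749 on GFP-negative arrays. The 16 hepatocyte markers had a median of -0.15 with 15 of 16 below 0, against 55.7% of all genes. They were led by Pck1 (-0.52 ± 0.23, adjusted p = 0.555) and Cyp3a11 (-0.42 ± 0.14, adjusted p = 0.359), and 2 of them had an unadjusted p below 0.05. They summed to 71594 to 75923 on GFP-positive and 79939 to 83676 on GFP-negative arrays. The lowest deposited intensity of any probe set was 1.62, so the absence of markers at 0 does not show that they were detected. The part of any of these cells in the difference of Clec4f was not tested.

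The medians of the blood cell and bile duct lists lay nearer to 0, that of neutrophil markers only slightly so. Single genes did not all lie near 0: S100a8, a neutrophil marker near background in both groups, differed by -0.97. The 12 neutrophil markers had a median of -0.13, and 9 of them were near background in both groups. They summed to 159 to 180 on GFP-positive and 179 to 245 on GFP-negative arrays, with S100a9 at -0.64 ± 0.37 (limma adjusted p = 0.717) and Ngp at -0.46 ± 0.25 (adjusted p = 0.694), and 1 of the 12 had an unadjusted p below 0.05. The 8 erythroid markers had a median of -0.11, with Car1 at -0.65 ± 0.27 (adjusted p = 0.511) and Alas2 at -0.45 ± 0.35 (adjusted p = 0.841), and 1 of the 8 had an unadjusted p below 0.05. Of 14 lymphoid markers (median 0.02) and 7 cholangiocyte markers (median -0.05), none had an unadjusted p below 0.05. The largest differences above background there were -0.02 ± 0.18 for Cd3e, 0.05 ± 0.30 for Onecut1 and -0.05 ± 0.14 for Sox9, with adjusted p between 0.971 and 0.992.

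**Figure D4:**
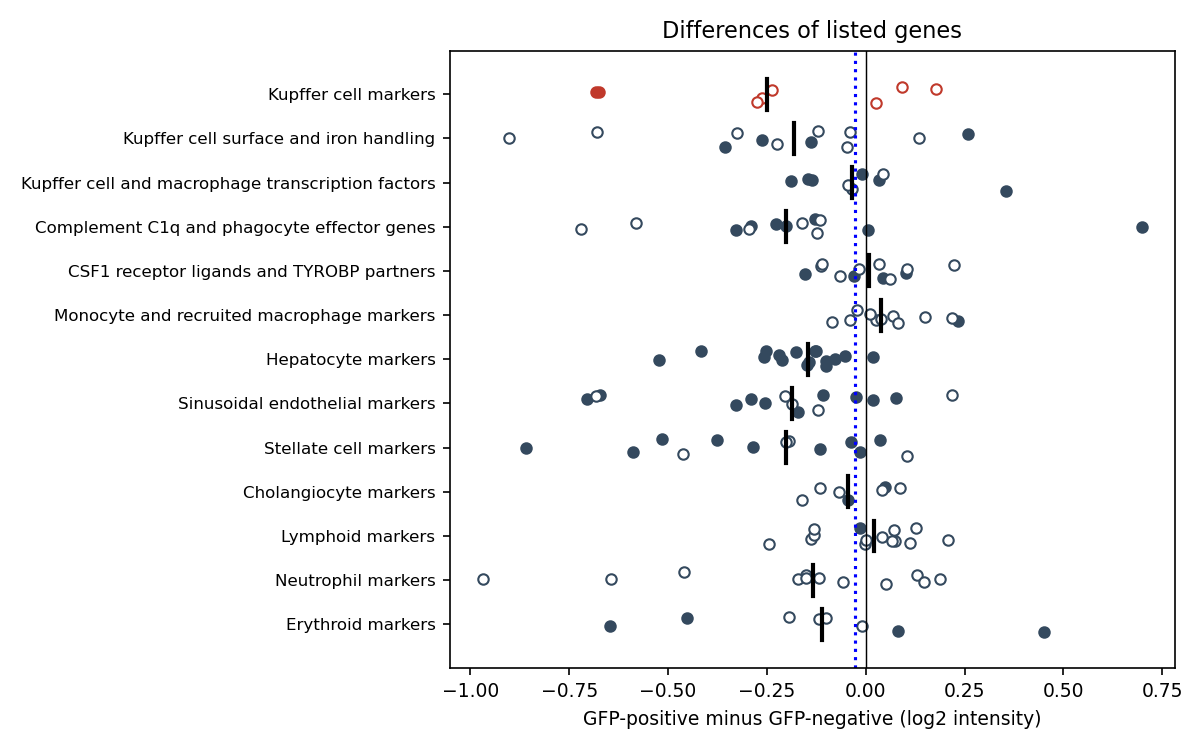
GFP-positive minus GFP-negative differences (log2 intensity) of the Kupffer cell markers (red) and of genes in 12 further lists (dark), filled where both group means lie above the array medians and open otherwise, with a black bar at each list's median and a dotted line at the median of all genes. The 2 filled red points, Clec4f at -0.68 and Tyrobp at -0.67, lie among the lowest points. Genes of the endothelial, stellate cell, neutrophil, Kupffer cell surface and phagocyte effector lists also reach that range.

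For the 2 markers above background in both groups, the most similar profiles over the 6 arrays were sought by root mean square distance between centred log2 values. The search covered the 10410 other genes that had means above the array medians in both groups and symbols that are not clone or predicted names, so genes nearer to background were not compared. Nearest to Clec4f were Bicral (0.08), Gjb2 (0.09) and Mapre3 (0.09), none of which was called. Gjb2, the gene of the gap junction protein connexin 26 of hepatocytes, measured 9.63, 9.53 and 9.62 in GFP-positive cells, against 10.11, 10.10 and 10.23 in GFP-negative cells. Nearest to Tyrobp were Zdhhc20 (0.11), Ppp1r3g (0.12) and Dcn (0.17). Of the 8 markers, only Clec4f and Tyrobp had means above the array medians in both groups, so the search could not return the others. The 6 arrays share mice between groups, so this likeness is a description.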

How the data were processed

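Per the labels' protocols, GFP-positive and GFP-negative liver cells were sorted into a phenol reagent, and column-purified total RNA was amplified with a whole-transcript kit and labelled with biotin. The deposited intensities, 1 per probe set and array, were made by the authors with RMA per the submitters' processing notes, with settings not given in the sources used here. The deposited values run from 1.62 to 15836, so they are on a linear scale, and log2 was taken with no further normalization. Of 35512 probe sets, 21789 have 1 gene symbol in the platform annotation, 1621 have several and 12102 have none. Of those with 1 symbol, 21698 were matched through Entrez identifiers and took the matched symbol, changed or not (GRCm38 table, names only). Where 1 of the 19938 genes had several probe sets, the brightest on average was kept.

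Groups were compared with limma (version 3.58.1, R 4.3.3; lmFit, then eBayes with 4 residual and 5.44 prior degrees of freedom), adjusted over all genes, with no filter on low values. On simulated data for 19938 genes, differences of 0.5, 1, 2 and 3 were called in 0%, 60%, 96% and 98% of 50 changed genes each. The members and lists were chosen with earlier results of these data known. Named were the 8 markers, in each list the called genes or else the 2 largest differences among those above the array medians in at least 1 group, and the 3 nearest profiles of each marker above them in both. Of the 12 called cell division genes only the range is given, and Lyz2, Spi1 and S100a8 were named after their values were seen. Of 173 listed symbols 162 were matched.

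The design text says both fractions came from the same 3 livers, so replicate numbers were taken to pair arrays. Number 2 had high Xist in both groups, and deviations from group means correlated across genes by 0.20, 0.06 and -0.05 in numbers 1, 2 and 3. The labels do not tie a number to a mouse, so the block is given as an alternative. Correlations between arrays over genes ran from 0.968 to 0.990. Tables were handled in pandas 2.3.3 and numpy 2.4.6 under Python 3.11.15, and figures drawn with matplotlib 3.10.9.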

Additional observations from a re-analysis of the deposited data

How the results depend on the processing

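Each of the 8 differences was refitted under 16 alternatives. Clec4f was lower in all 16, by -0.48 to -0.72, and was called in 8 of them, with adjusted p between 0.0072 and 0.152. It was not called with the replicate number as a block (-0.68, adjusted p = 0.0773), with both arrays of number 2 left out (-0.68, adjusted p = 0.135) or with any 1 array left out (-0.72 to -0.65). The number of markers called lower was then 0, and 0 were called higher under any alternative. Fewer arrays or residual degrees of freedom are part of how these fits are made. Directions that turned were those of Vsig4 with array weights (0.0813), without number 2 (0.71) and over single arrays left out (-0.96 to 0.63), and of Marco with arrays centred on their medians (-0.0048, against 0.03), without number 2 (-0.30) and over single arrays left out (-0.20 to 0.23). That of Csf1r turned without GFP-negative 1 (-0.0057, to 0.24 over the arrays left out). Cd5l turned to 0.0301 with all values lifted at least to the array median, and Timd4 and Csf1r had the same 0.0301 there. That value equals the offset between the groups' medians, so the lifted fit holds no direction for these genes. The cause of the other turns was not tested. Clec4f was the only marker that passed in any fit. Tyrobp and Cd68 kept their direction wherever they were fitted, and Timd4 kept its direction in the fits other than the lifted one. Leaving out low genes kept 11342 and held no value for Vsig4, Cd5l, Marco, Timd4 or Csf1r.

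Over all genes, 310 were higher and 23 lower. The count of lower genes was 13 with arrays centred, 53 with array weights, 9 without number 2 and 6 to 29 with 1 array left out. In the lists, 1 surface gene (C6) was called with the block, and 0 to 1 phagocyte effector genes (Lyz2, without GFP-negative 3) with 1 array left out. Levels near the array medians limit what can be seen for 5 of the 8 markers.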
